A study of Mus musculus with 12 samples.

Results

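Imprinted genes are genes of which a cell transcribes mainly the copy inherited from one parent. The parental copies are told apart by DNA methylation laid down in the egg or the sperm at imprinting control regions, which later silence or spare nearby promoters and long noncoding RNAs. Because the active and the silent copy lie in the same nucleus, a chromatin assay on an inbred strain reads the sum of both. Many imprinted genes are clustered, and many are expressed in brain, where they include growth factors, growth inhibitors and genes of the Prader-Willi and Angelman region.

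A list of 35 imprinted genes was examined, out of 34614 protein-coding and long noncoding RNA (lncRNA) genes in a RefSeq table of the mouse assembly GRCm38.p6. All 35 were found by symbol: 27 are protein-coding and 8 are lncRNAs. By textbook knowledge of the mouse, 11 are expressed from the maternal copy and 22 from the paternal copy, and for Grb10 and Gnas the expressed copy depends on the promoter or the tissue. In this list, 25 of the genes lie in 9 clusters and 10 stand alone. They are spread over 10 chromosomes, 13 of them on chromosome 7.

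The measurements are ATAC-seq peaks, stretches where a transposase inserted adapters more often than in the local background, in neurons from the infralimbic prefrontal cortex of adult C57BL/6 male mice aged 10 to 12 weeks. Cells positive for both NeuN, a neuronal nuclear protein, and Arc, the product of an activity-induced gene, were sorted, and each library used 50000 cells from the pooled tissue of 5 mice. In every mouse a tone had first been paired 3 times with a foot shock of 0.7 mA. On the next day the extinction (EXT) mice heard 60 tones in another context, while the retention control (RC) mice stayed there for the same time without tones. Peak lists that cover the whole genome were at hand for RC replicate 3 (73.8 M tags, 97961 peaks), EXT replicate 1 (65.0 M tags, 80735 peaks) and EXT replicate 2 (57.7 M tags, 123375 peaks). Where 3 values stand together, they are in this order. The lists of RC replicates 1 and 2 stop within chromosome 1, where no gene of the list lies, and EXT replicate 3 was not analysed here. With 1 RC list against 2 EXT lists no test between the groups was made, since the smallest exact permutation p would be 0.33. As a coarse check of the sort, 8, 8 and 9 of 10 neuronal marker genes had a peak within 1 kb of an end in the 3 lists. Over all protein-coding genes the shares were 56.1%, 53.3% and 61.1%. Of 16 markers of oligodendrocytes, microglia, astrocytes and endothelium, each of these 4 cell types had 1 or 2 of its 4 genes with such a peak in each list. Of these, Sox10, Spi1, Gfap and Cldn5 had one in all lists, Cldn5 with the highest mean percentile, 90.3. Of the neuronal markers, Rbfox3, which encodes NeuN itself, had one only in EXT replicate 2, at a fold enrichment of 2.16. Gad1 had one only in RC replicate 3, at 2.19.

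Some of the promoter windows compared below are shown first. A printed window need not be the methylated promoter of its gene. ZFP57, a zinc finger protein that keeps germline imprints methylated, binds the methylated hexamer TGCCGC. The hexamer (on either strand, so also as GCGGCA) is in capitals in windows from 250 bases before to 50 bases after a RefSeq transcription start, printed 5′ to 3′ along the transcribed strand. The first 6 windows hold the hexamer and lie at a start with a peak within 1 kb in all 3 lists. The last 2, of Mkrn3 and Meg3, had no such peak in any list.
Nap1l5 (chr6:58907077-58907376, minus strand): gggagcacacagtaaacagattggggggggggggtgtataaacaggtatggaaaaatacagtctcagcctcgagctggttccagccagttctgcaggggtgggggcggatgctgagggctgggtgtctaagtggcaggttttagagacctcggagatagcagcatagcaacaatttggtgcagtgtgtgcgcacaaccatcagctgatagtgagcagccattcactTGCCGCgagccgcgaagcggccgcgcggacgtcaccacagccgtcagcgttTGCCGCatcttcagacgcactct
Nnat (chr2:157559828-157560127, plus strand): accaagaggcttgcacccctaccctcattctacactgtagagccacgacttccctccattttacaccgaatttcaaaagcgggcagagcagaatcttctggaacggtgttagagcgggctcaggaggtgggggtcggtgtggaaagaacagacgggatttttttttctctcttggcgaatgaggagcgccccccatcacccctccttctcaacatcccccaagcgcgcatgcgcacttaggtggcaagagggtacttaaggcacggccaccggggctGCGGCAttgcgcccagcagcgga
Commd1 (chr11:22982235-22982534, minus strand): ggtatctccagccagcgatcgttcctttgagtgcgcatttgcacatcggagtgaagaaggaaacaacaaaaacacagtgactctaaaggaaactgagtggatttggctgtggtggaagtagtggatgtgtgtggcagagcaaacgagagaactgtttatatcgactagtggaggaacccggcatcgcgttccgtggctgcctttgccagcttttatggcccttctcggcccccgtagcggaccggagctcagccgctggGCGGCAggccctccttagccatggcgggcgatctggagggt
Grb10 (chr11:12037371-12037670, minus strand): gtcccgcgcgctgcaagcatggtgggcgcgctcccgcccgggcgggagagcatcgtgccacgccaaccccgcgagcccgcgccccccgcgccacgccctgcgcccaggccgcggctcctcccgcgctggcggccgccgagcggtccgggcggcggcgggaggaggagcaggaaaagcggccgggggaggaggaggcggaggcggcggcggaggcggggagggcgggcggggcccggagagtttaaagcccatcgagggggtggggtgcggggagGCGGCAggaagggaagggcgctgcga
Snrpn (chr7:60005150-60005449, minus strand): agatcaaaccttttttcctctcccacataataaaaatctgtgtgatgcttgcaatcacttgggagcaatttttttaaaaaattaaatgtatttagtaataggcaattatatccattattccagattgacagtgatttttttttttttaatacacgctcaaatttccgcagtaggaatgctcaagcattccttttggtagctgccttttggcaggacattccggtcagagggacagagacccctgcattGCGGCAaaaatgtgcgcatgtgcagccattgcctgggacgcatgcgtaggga
Plagl1 (chr10:13090582-13090881, plus strand): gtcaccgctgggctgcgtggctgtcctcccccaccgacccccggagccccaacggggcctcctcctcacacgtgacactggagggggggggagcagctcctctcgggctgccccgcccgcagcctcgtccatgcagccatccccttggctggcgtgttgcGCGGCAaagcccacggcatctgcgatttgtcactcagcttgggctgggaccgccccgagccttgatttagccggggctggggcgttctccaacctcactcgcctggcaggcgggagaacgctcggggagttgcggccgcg
Mkrn3 (chr7:62420104-62420403, minus strand): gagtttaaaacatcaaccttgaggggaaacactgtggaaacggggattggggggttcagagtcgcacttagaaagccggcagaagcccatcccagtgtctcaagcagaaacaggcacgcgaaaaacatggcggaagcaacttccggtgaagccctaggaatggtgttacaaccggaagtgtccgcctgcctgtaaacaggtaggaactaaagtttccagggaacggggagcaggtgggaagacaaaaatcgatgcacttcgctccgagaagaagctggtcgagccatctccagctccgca
Meg3 (chr12:109540746-109541045, plus strand): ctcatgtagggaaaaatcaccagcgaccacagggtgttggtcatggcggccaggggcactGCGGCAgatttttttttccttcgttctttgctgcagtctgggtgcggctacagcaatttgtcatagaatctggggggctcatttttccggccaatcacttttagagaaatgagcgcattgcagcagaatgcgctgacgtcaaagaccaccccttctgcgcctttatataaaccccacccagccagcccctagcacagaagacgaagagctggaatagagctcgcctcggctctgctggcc
Nap1l5 holds the hexamer 2 times, once on each side of its start. Meg3 holds it once although it had no peak, so the letters alone did not separate the windows with peaks from those without.

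The share of imprinted genes with a peak at a gene end was above that of all genes in each list. A peak was counted when 1 bp or more of it fell no further than 1 kb from the lower or the upper end of the annotated gene. This was so for 24, 24 and 27 of the 35 genes, or 68.6%, 68.6% and 77.1%. Over all 34614 genes the shares were 47.0%, 44.0% and 52.8%. The gap was there within both gene classes: 19, 19 and 22 of the 27 protein-coding members had an end peak (70.4%, 70.4% and 81.5%, against 56.1%, 53.3% and 61.1% of all protein-coding genes), and 5 of the 8 lncRNAs did in each list (62.5%, against 31.5%, 28.0% and 38.3% of all lncRNAs). The members are not independent of each other, since Peg10 and Sgce share their end peak and several pairs overlap. Within the spans, 32, 31 and 32 members held a peak, against 60.3%, 57.1% and 64.9% of all genes, and 30 members held one in all lists, against 52.5% of all genes, but the members are also longer, with a median span of 30734 bp against 12757 bp.

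The peaks themselves ranked near those of all genes in RC replicate 3 and EXT replicate 1, and lower in EXT replicate 2. Each peak was placed by the percentile of its −log10 q within its own list, and a gene was given its best end peak, the one of highest −log10 q. The median percentile of the members' best end peaks was 78.2, 78.2 and 72.3 in the 3 lists, beside 77.1, 75 and 82.0 for all genes with an end peak. Their median fold enrichment over the local background, a ratio given by the authors' peak caller, was 5.19, 5.23 and 5.34. For all genes with an end peak it was 5.25, 4.87 and 6.64.

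**Figure D1:**
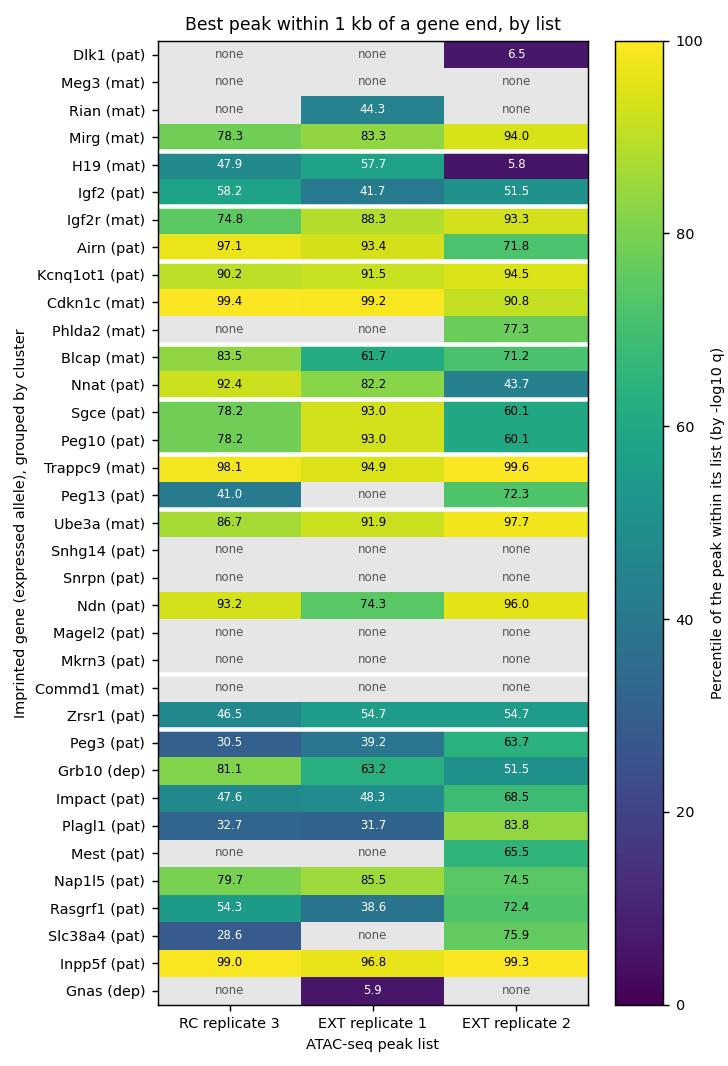
Percentile, within each list, of the best peak within 1 kb of a gene end, for the 35 imprinted genes (rows, with the expressed allele: mat maternal, pat paternal, dep dependent on promoter or tissue) in 3 ATAC-seq lists (columns); white lines part the clusters, genes that stand alone are at the bottom, and grey cells marked none have no such peak. Inpp5f, Trappc9, Cdkn1c and Kcnq1ot1 stay above 90 in every list, and 6 genes are grey in all 3.

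Maternally and paternally expressed genes were not separated by end peaks. Of the 11 maternally expressed genes, 7, 8 and 8 had one in the 3 lists (63.6%, 72.7% and 72.7%). Of the 22 paternally expressed genes, 16, 14 and 18 did (72.7%, 63.6% and 81.8%). The paternal share was thus 9.1 percentage points higher, 9.1 lower and 9.1 higher in the 3 lists, so that its sign changed between the EXT libraries. Where maternally expressed genes had an end peak, its median percentile was higher in every list, at 83.5, 85.8 and 92.0 against 68.2, 78.2 and 70.2 for the paternally expressed genes. This order held among protein-coding members (86.7, 91.9 and 92.0 against 58.2, 64.5 and 65.5). Among lncRNAs it was the opposite (63.1, 57.7 and 49.9 against 90.2, 92.4 and 72.3), from 2 or 3 genes on each side. The 3 highest maternally expressed genes in each list were taken from Cdkn1c, Trappc9, Ube3a and Mirg.

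Genes with a germline methylated promoter had peaks at ends and starts in larger shares than the other members. For 16 of the 35 genes a promoter is known to be methylated in the egg, so that the maternal copy is silent there. Of these, 13, 13 and 14 had an end peak (81.2%, 81.2% and 87.5%), against 11, 11 and 13 of the other 19 (57.9%, 57.9% and 68.4%). Strand and transcription starts were available in the RefSeq promoter table for 28 members with 44 starts, 12 of them in this class. H19, Peg10, Sgce, Cdkn1c, Peg13, Trappc9 and Impact were not among them. All 12 genes of the class had a peak within 1 kb of a start in all 3 lists: Airn, Gnas, Grb10, Inpp5f, Kcnq1ot1, Mest, Nap1l5, Nnat, Peg3, Plagl1, Snrpn and Zrsr1. Of the other 16 members 7 did, or 43.8%: Blcap, Commd1, Igf2, Igf2r, Ndn, Rasgrf1 and Ube3a. Over all genes with a start in the table the share was 39.0%, and over protein-coding genes it was 49.9%. In the single lists 45.0%, 42.9% and 50.0% of all genes and 55.4%, 53.6% and 60.1% of protein-coding genes had a start peak. The class exceeded the other members by 50.0, 43.8 and 31.2 percentage points in the 3 lists, a mean of 41.7 ± 9.55 (SD over the 3 lists, with no test made). Since the class was at 100% in each list, this SD is the spread of the other 16 members between lists. It does not measure the uncertainty that comes from the small number of genes. By parent of origin, 13 of 18 paternally (72.2%) and 4 of 8 maternally expressed genes (50.0%) had a start peak in all lists. Commd1 shares some of its start peaks with Zrsr1, which lies beside one of its starts. The full count of the class depends on the 1 kb window. In RC replicate 3 the only peaks within 1 kb of a start of Airn, Mest, Peg3 and Snrpn lay over 500 bp away. Their percentiles were 97.1, 6.4, 30.5 and 63.1, and with 500 bp windows these genes lacked a start peak in that list.

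Several genes of the class have more than 1 start, which gives them more chances of a peak. Among genes with a single start in the table, 8 of 8 in the class and 5 of 12 others had a peak in all 3 lists. Counted by start, 16 of 21 starts in the class and 9 of 23 others did. Close starts that share their peaks were counted separately, for Mest at 30738050 and 30738053 and for Gnas at 174327749 and 174327768. For Inpp5f the table gives only the start of the full-length transcript, while its methylated promoter lies inside the gene, and without it the count was 11 of 11. For genes with more than 1 start, the counts do not tell which start is the methylated promoter. Grb10 had peaks in all lists near its upper start and, with folds of 2.9, 2.87 and 4.06, near its inner start at 12027971. For Snrpn only the innermost of 4 starts had a peak, and for Gnas the outermost start, at position 174284320 of chromosome 2, had none in any list.

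**Figure D2:**
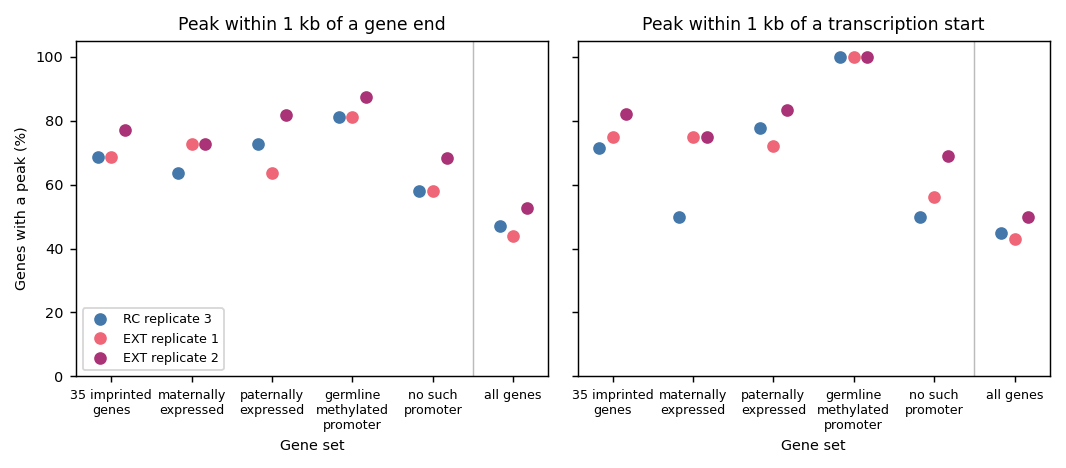
Share of genes (%) with a peak within 1 kb of either gene end (left) and within 1 kb of a transcription start in the RefSeq promoter table (right), by gene set; each dot is 1 of the 3 lists. On the right, the genes with a germline methylated promoter are at 100% in all lists, the other imprinted genes at 50.0%, 56.2% and 68.8%, and all genes at 45.0%, 42.9% and 50.0%.

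Sequence around the starts varied with the peaks. The median window of the members held 13 CpG dinucleotides against 7 over all 32851 windows in the table, and the class with germline methylation held 15. The 25 starts with a peak in all 3 lists had a median of 17 CpG, and the 13 starts without a peak in any list had 5. The hexamer TGCCGC was present in 10 of the members' 44 windows (22.7%) and in 7 of the 21 windows of the class (33.3%), against 11.6% of all windows. Of the 10 windows with the hexamer, 8 had a peak within 1 kb in all lists, and of the 34 without it, 17 did. The nearly identical windows of close Mest starts, with the hexamer, and of close Gnas starts, without it, are counted separately here too. The hexamer itself holds a CpG. The part of CpG content in the hexamer shares, in the peaks at windows with the hexamer and in the difference between the promoter classes was not tested.

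**Figure D3:**
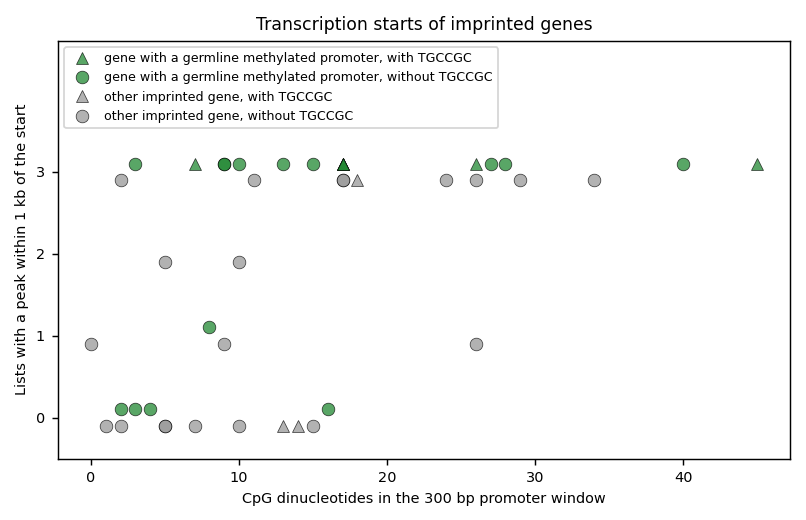
Each of the 44 transcription starts of 28 imprinted genes, by the number of CpG dinucleotides in its 300 bp window (horizontal axis) and the number of lists, 0 to 3, with a peak within 1 kb (vertical axis; the colours are offset slightly so that points do not hide each other). Starts with 17 or more CpG sit mostly at 3 lists, with a Phlda2 start (26 CpG, 1 list) as the exception.

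The single imprinted genes with a germline methylated promoter differed in where the peak lay. Peg3 encodes a zinc finger protein active in maternal behaviour and growth. Within 1 kb of its start it had only weak peaks, the best with folds of 2.24, 2.59 and 2.88 in the 3 lists. Some 1.9 kb inside the gene from its upper end, however, it had a peak 1639, 1408 and 1590 bp wide, chr7:6727378-6729016 in RC replicate 3. Its folds were 6.35, 7.14 and 7.54 and its percentiles 97.7, 97.8 and 98.4. By width it ranked 19 of 97961, 29 of 80735 and 39 of 123375 peaks.

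Impact, a regulator of translation, showed the same form of peak 19.3 kb from the lower end of its span. It was 1523, 1421 and 1546 bp wide, chr18:12973091-12974613 in RC replicate 3, with folds of 8.41, 6.63 and 8.34. Its width ranked 32, 28 and 57 in the 3 lists, and its percentile was 99.5, 96.6 and 98.6. At the ends of Impact the best peaks were weaker, with folds of 3.83, 3.58 and 5.61. Peaks of 1400 bp or more, a limit set after these widths were seen, made up 0.0521%, 0.0359% and 0.0981% of the lists.

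Inpp5f, which encodes an inositol phosphatase, had the highest mean percentile of all members. Its peak spanned the annotated start at chr7:128610722-128611751, chr7:128610545-128611741 and chr7:128610821-128611741, with folds of 14.7, 10.5 and 18.9 and percentiles of 99.0, 96.8 and 99.3 in the 3 lists. Further peaks 79.2 and 79.8 kb into the gene recurred in all 3 lists at folds between 2.76 and 4.02. RC replicate 3 lay between the EXT libraries in fold.

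Plagl1, a zinc finger transcription factor and growth regulator, had one of the more variable starts. Its peak over the start had folds of 3.61, 3.54 and 9.60, so EXT replicate 2 stood above the other lists and EXT replicate 1 did not. Grb10, an adaptor protein that restrains insulin signalling, had a peak about 0.6 kb inside its upper start with folds of 7.08, 4.99 and 5.16; its printed window is the richest in CpG of all members, with 45. Nap1l5, a retrogene encoding a nucleosome assembly protein, had a pair of peaks within 1 kb of its start in every list. The peak inside the gene had folds of 5.25, 6.16 and 4.16, and the one over the start had 4.08, 3.99 and 6.23. EXT replicate 2 also had a weaker peak 0.4 kb beyond the upper end, with a fold of 3.11. Mest, a member of the alpha/beta hydrolase family, had no peak within 1 kb of either end in RC replicate 3 or EXT replicate 1. In EXT replicate 2 it had one at chr6:30733984-30734143 with a fold of 4.65. Every list had a peak within 1 kb of its inner start at position 30738050, but not the same one: chr6:30737695-30738115 in EXT replicate 1 (fold 3.34) and chr6:30737717-30738375 in EXT replicate 2 (fold 4.07) reached the start, while RC replicate 3 had only chr6:30736925-30737182 (fold 2.34).

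The Gnas locus, which encodes the stimulatory G protein alpha subunit from several promoters, was open at its inner promoters. At the start at position 174327749 of chromosome 2 the folds were 7.37, 7.06 and 7.23, with percentiles of 94.3, 92.9 and 87.0. The peak over the start at 174330006 had folds of 3.46, 3.72 and 4.20. Its only end peak was a weak one in EXT replicate 1 at chr2:174347407-174347623, beyond the 3′ end, with a fold of 2.58.

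Rasgrf1, a Ras exchange factor expressed in neurons, and Slc38a4, an amino acid transporter, carry paternal expression without a promoter of this class in the list used. Rasgrf1 had an end peak in all lists, with folds of 4.19, 3.14 and 5.34, that of EXT replicate 1 at another site than the others. Slc38a4 had one in RC replicate 3 (chr15:97054979-97055269, fold 3.47) and in EXT replicate 2 (chr15:97055120-97055279, fold 7.82). EXT replicate 1 had none there, so the EXT libraries differed.

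In the Prader-Willi and Angelman region, accessible sites were few over the whole interval and uneven. Over the 3191.4 kb from Ube3a to Mkrn3 there were 2.16, 1.82 and 2.01 peaks per 100 kb in the 3 lists. Over the merged spans of all genes there were 5.85, 4.85 and 7.29. The interval includes sequence between its genes, such as 60450177 to 62348277 between Snhg14 and Ndn, while the merged spans are genic only. Within spans, Ube3a held 6.09, 6.09 and 8.53 per 100 kb, and the short Ndn was higher still. Snhg14 held 3.14, 2.55 and 2.38, Snrpn was lower still, and Magel2 and Mkrn3 had no peak. The part of the sequence between genes in the low density was not tested. Of the region's 6 genes 2 had an end peak, the same 2 in each list (33.3%, against 47.0%, 44.0% and 52.8% of all genes). Within 1 kb of a transcription start 3 of the 6 had a peak in each list (50.0%, against 45.0%, 42.9% and 50.0% of all genes). Ube3a, the ubiquitin ligase whose maternal copy is the active one in neurons, had a broad peak over its start with folds of 4.88, 5.83 and 10.2 and percentiles of 86.7, 91.9 and 97.7. It was 1300, 1882 and 1674 bp wide, at chr7:59228094-59229393, chr7:59227880-59229761 and chr7:59228069-59229742. In EXT replicate 1 only 4 peaks of the whole list were wider.

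Ndn, which encodes necdin, a growth suppressor of neurons, had a peak of identical bounds in all lists, chr7:62348616-62348778. Its fold was 9.97, 5.95 and 16.4 and its percentile 93.2, 74.3 and 96.0. RC replicate 3 again lay between the EXT libraries. Magel2, a regulator of endosomal protein sorting, and Mkrn3, a ring finger protein known as a brake on puberty, had no peak at an end or within the span in any list. The nearest peak below Magel2 lay 28.2 kb away in every list, which is the peak at Ndn. Above Mkrn3 it lay 43.9 kb away in RC replicate 3 and EXT replicate 2 and 679.0 kb away in EXT replicate 1.

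Snrpn and Snhg14 had no peak within 1 kb of either end, neither at the start they share at position 60450177 nor at their separate lower ends. Snrpn encodes a splicing protein, and its innermost start, at 60005199, is the known imprinting centre of the region. There RC replicate 3 had a peak at chr7:60003607-60004465 with a fold of 4.06. EXT replicate 1 had peaks at chr7:60003959-60004538 (fold 3.25) and chr7:60005039-60005229 (fold 3.78). EXT replicate 2 had chr7:60003662-60004491 (fold 3.97) and chr7:60005082-60005241 (fold 2.93). The narrow peak over the start itself was thus listed in both EXT libraries and not in RC replicate 3, while the broad peak just inside was in all 3. For the best peak in the span, Snrpn had chr7:60038934-60039094 (fold 8.67) in RC replicate 3, chr7:60351936-60352095 (fold 5.95) in EXT replicate 1 and chr7:60244272-60244519 (fold 7.64) in EXT replicate 2, at a different place in each list. Snhg14, the long host transcript of small nucleolar RNAs that runs antisense into Ube3a, held 12 regions found in all 3 lists. Its best was chr7:59769677-59770177, chr7:59769698-59770160 and chr7:59769698-59770150, with folds of 7.74, 8.32 and 8.51 and percentiles of 98.9, 99.2 and 96.1.

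**Figure D4:**
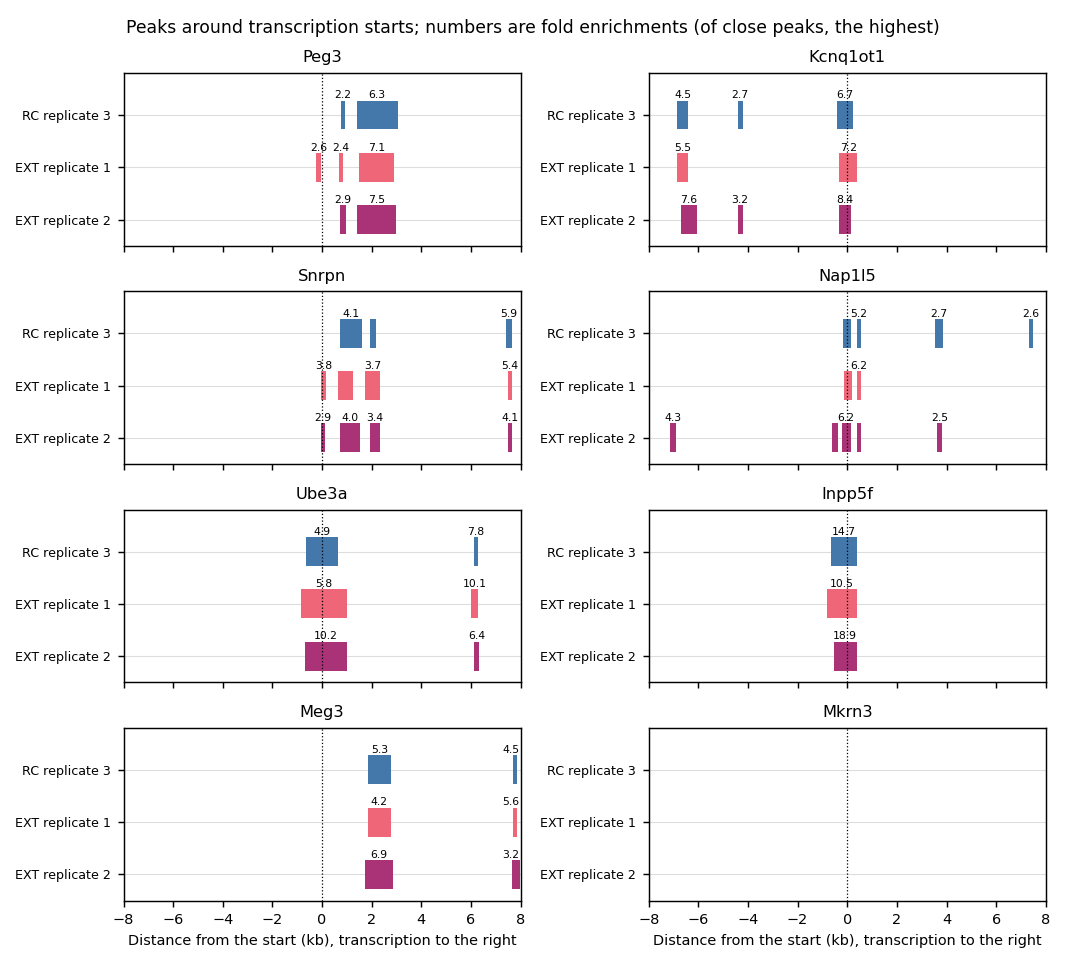
Peaks (bars) within 8 kb of 1 transcription start of each of 8 imprinted genes, with transcription to the right and 1 line per list; numbers are fold enrichments. Peg3 has its wide peak inside the gene, Ube3a and Inpp5f have peaks across the start, Meg3 has its nearest peak 2 kb downstream, and Mkrn3 has none.

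In the Dlk1-Meg3 cluster only Mirg had an end peak in all lists. Its noncoding RNAs Meg3, Rian and Mirg are read from the maternal copy and Dlk1, a Notch-like growth regulator, from the paternal copy. Meg3 had no end peak in any list. About 2 kb into the transcript it had a peak 946, 914 and 1139 bp wide, chr12:109542838-109543783 in RC replicate 3, with folds of 5.33, 4.24 and 6.91. A second site with identical bounds in all lists, chr12:109549493-109549652, had folds of 6.48, 5.43 and 5.63. The best peak in the span was this site in RC replicate 3, chr12:109548688-109548852 (fold 5.62) in EXT replicate 1 and chr12:109542725-109543863, the broad one, in EXT replicate 2. The nearest peak outside Meg3 was more than 10 kb away on both sides in each list.

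Mirg, a host of microRNAs, had its end peak at the 3′ end in all lists, with folds of 4.24, 4.53 and 6.92. Rian had an end peak only in EXT replicate 1, at chr12:109603009-109603183, upstream of its start, with a fold of 2.82 and a percentile of 44.3. Dlk1 had one only in EXT replicate 2, at chr12:109453208-109453550, with a fold of 3.02 and a percentile of 6.5. Both were weak within their lists. Inside Dlk1 a peak with the same bounds in all lists, chr12:109461202-109461361, was stronger, at 7.80, 6.60 and 6.40.

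The microRNA hairpins carried by imprinted genes were mostly outside peaks. Of 17 hairpins in 6 members, 10 of them in Mirg, 2 were overlapped by a peak, both only in EXT replicate 2. The share over all microRNA hairpins was not computed, so the count does not set the members apart from other hairpins. Mir675 in H19, at chr7:142577064-142577147, was overlapped in part by chr7:142576944-142577103 with a fold of 6.00, and the mature miR-675-5p lies outside that peak. Mir370 in Rian was overlapped by chr12:109618101-109618335 with a fold of 2.61. Their mature sequences are shown with the seed, bases 2 to 8, in capitals, and no 2 of the 4 share a seed.
mmu-miR-675-5p: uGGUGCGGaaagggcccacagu
mmu-miR-675-3p: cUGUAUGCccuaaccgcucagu
mmu-miR-370-5p: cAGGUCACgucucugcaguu
mmu-miR-370-3p: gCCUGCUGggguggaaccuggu

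At Igf2-H19, the site of the insulator that assigns shared enhancers to one gene or the other, each list had an end peak for both genes. H19, a maternal noncoding RNA, had folds of 3.87, 4.28 and 2.55 and percentiles of 47.9, 57.7 and 5.8 in the 3 lists. Above its upper end the nearest peaks were 2.5, 7.9 and 2.2 kb away, with folds of 4.19, 2.31 and 2.90. Igf2, the growth factor, had modest end peaks at 4.91, 3.86 and 5.16. Its strongest peak lay beside an inner start at position 142658804, with folds of 12.7, 11.3 and 14.7 and percentiles of 97.0, 96.1 and 95.0. That peak had the same bounds, chr7:142659010-142659201, in RC replicate 3 and EXT replicate 1.

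In the Kcnq1ot1 domain Cdkn1c, which encodes a cyclin-dependent kinase inhibitor, ranked above Kcnq1ot1 and Phlda2 in RC replicate 3 and EXT replicate 1 and below Kcnq1ot1 in EXT replicate 2. Its best end peak, chr7:143459288-143459775, had the same 488 bp in all 3 lists, with folds of 13.7, 11.2 and 8.35 and percentiles of 99.4, 99.2 and 90.8. Of 43978 regions found in all lists over the genome, 5502 (12.5%) had the same bounds in each, as did 11 of 84 regions inside the members (13.1%). The other 10 of the members' regions were 160 to 164 bp wide. Only 11 of such regions in the genome were 400 bp or wider, a width chosen after the Cdkn1c peak was seen. Kcnq1ot1, the antisense RNA that silences the cluster, had a peak over its start at chr7:143296311-143296969, chr7:143296156-143296867 and chr7:143296387-143296870, with folds of 6.69, 7.16 and 8.41 and percentiles of 90.2, 91.5 and 94.5. Phlda2, a growth inhibitor of the placenta, had a peak only in EXT replicate 2, chr7:143501804-143501963, with a fold of 6.87.

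Apart from the short Nnat-Blcap span, Igf2r-Airn had the most peaks per length of the 9 clusters, 11.8, 11.3 and 14.65 per 100 kb in the 3 lists. Igf2r, a receptor that clears IGF2, had a peak over its start with folds of 5.13, 6.64 and 9.42. Airn, the antisense RNA that starts inside Igf2r, had its end peak about 1 kb after its start, with folds of 9.37, 8.10 and 5.09. The order of the lists was thus opposite at the 2 starts: EXT replicate 2 had the highest fold and percentile at Igf2r and the lowest at Airn. Over the genome EXT replicate 2 had the highest fold of the 3 lists in 90.2% of 9185 shared regions at least 400 bp wide, to which the Igf2r peak belongs and the Airn peak does not. The part of this library-wide order in the values of single genes was not tested.

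Nnat, a proteolipid gene that lies in an intron of Blcap, had a peak about 0.4 kb after its start with folds of 7.14, 5.48 and 3.78. Blcap, an apoptosis-related gene read from the maternal copy in brain, had a peak at its start with folds of 5.59, 3.80 and 4.95. Both were highest in RC replicate 3 and kept a peak in each list. Sgce, a sarcoglycan, and Peg10, a gene derived from a retrotransposon, face each other across a promoter. Its best peak within 1 kb of the gene ends had folds of 6.18, 8.48 and 4.85. In EXT replicate 2 that best peak lay at chr6:4748105-4748350, further into Peg10 than in the other lists. Inside Sgce one narrow site, chr6:4719500-4719661, had the same bounds in all lists and folds of 25.4, 25.0 and 14.8, in RC replicate 3 and EXT replicate 1 the highest of any region that the lists share inside a member.

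Trappc9, a trafficking factor in which Peg13 lies, had a peak at its upper end, at chr15:73060507-73061581, chr15:73060952-73061461 and chr15:73060778-73061431. Its folds were 9.35, 7.71 and 16.3 and its percentiles 98.1, 94.9 and 99.6. Peg13, a brain noncoding RNA, had an end peak in RC replicate 3 at chr15:72810115-72810506 (fold 3.16) and in EXT replicate 2 at chr15:72809860-72810544 (fold 4.65). EXT replicate 1 had none there, nor any in the span. Zrsr1, a splicing factor retrogene inside Commd1, had a peak over its start with folds of 3.64, 3.08 and 4.34. Commd1, a copper and NF-kB regulator, had no end peak, but at its inner start at position 22982284, which is printed above, it had folds of 4.62, 3.84 and 6.89. These peaks, chr11:22981811-22982522 in RC replicate 3 and chr11:22981998-22982659 in EXT replicate 2, were the best in its span there, and in EXT replicate 1 the best was chr11:22972841-22973112 (fold 3.78), beside Zrsr1.

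Across training groups the members showed no shared difference. A peak at an end was present in all 3 lists for 22 members (39.1% of all genes) and in none for 6 (43.1% of all genes): Snrpn, Snhg14, Meg3, Magel2, Mkrn3 and Commd1. Counting both ends of a gene together, no member had a peak in the EXT lists while lacking one in the RC list, a pattern that 2.18% of all genes had. At a single end Mirg showed it: at its start both EXT lists had a weak peak (folds 3.02 and 2.51) and RC replicate 3 had none, while its 3′ end had a peak in all lists. None had one in RC replicate 3 alone (1.42% of all genes). The remaining 7 differed between the EXT libraries: Dlk1, Mest and Phlda2 had one only in EXT replicate 2 (6.43% of all genes), Rian and Gnas only in EXT replicate 1 (1.30%), and Peg13 and Slc38a4 in every list but that of EXT replicate 1 (5.09%). EXT replicate 2 is also the longest list. The mean EXT count was 1.5 genes above the RC count, less than the difference of 3 between the EXT libraries.

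The same region was not always the best end peak of a gene. Of the 22 members with an end peak in all lists, 14 had best peaks that shared at least 1 bp in all 3, against 82.6% of all genes with an end peak in all lists. For 10 of the 22 the peaks overlapped by 50% of each other's length, against 59.3% of those genes. The other 8 of the 22 had best peaks that did not share 1 bp in all lists. Among these 8, Peg3, Zrsr1, Impact, Rasgrf1 and Nap1l5 had best peaks at different sites around the same end in different lists. Peg10 and Sgce changed together at their shared end, and Igf2 changed from the upper to the lower end.

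Imprinted genes outside the list were compared in the same way. Of 34 further imprinted genes, 33 were matched to the table (Nespas was not), and 18, 19 and 22 had an end peak in the 3 lists (54.5%, 57.6% and 66.7%). All 33 are protein-coding, and their shares lie near the 56.1%, 53.3% and 61.1% of all protein-coding genes. A peak was present in all lists for 15 (39.1% of all genes) and in none for 10 (43.1% of all genes): Calcr, Slc22a18, Ins2, Th, Slc22a2, Atp10a, Sfmbt2, Zdbf2, Ddc and Ano1. These shares of all genes include lncRNA genes, and those of protein-coding genes alone were not computed. Cd81 (mean percentile 99.6 over 2 lists) and Tssc4 (99.0 over 3), neighbours that share a peak, were highest. Among 21 genes that set or keep imprints, which are all protein-coding too, the counts were 15, 14 and 15 (71.4%, 66.7% and 71.4%). For 12 of them every list held such a peak (39.1% of all genes). The histone demethylase gene Kdm1b and the heterochromatin protein gene Cbx5 were highest, with mean percentiles of 98.6 and 96.9. Zfp57, Dnmt3a, Ctcfl and Tet1 had none in any list, and Zfp57 had no peak in its span either.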

How the data were processed

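Peak lists of ATAC-seq libraries were read as deposited; groups and replicate numbers follow the sample titles. Per the submitters' processing notes the build is mm10, and BWA 0.7.17, HISAT2 2.1.0, SAMtools 1.8, cutadapt 1.17, bedtools 2.27.1, StringTie 2.1.4 and MACS2 2.2.4 are named for the series as a whole; the aligner of the ATAC-seq reads was not given. The authors ran peak calling library by library, without a control, keeping duplicates, with a tag shift of -75 bp, an extension to 150 bp and a q-value cutoff of 0.05, per the file headers. Kept duplicates can raise narrow peaks of few molecules, and 150 bp is also about the smallest width a peak can have. The deposited pileup is a coverage signal in whole tags. The deposited fold enrichment is the authors' ratio of pileup to local background, and the −log10 p and q values deposited with it rest on the same background. Folds and percentiles belong to their own list. No read counts were used, so precision rests on the spread between 3 lists, and pooled mice may or may not be independent cohorts.

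Gene spans came from a RefSeq table of GRCm38.p6 (the build of mm10), strand and starts from its promoter table, and hairpins and mature microRNAs from its microRNA table; positions are 1-based. Overlaps were computed in Python 3.11.15 with pandas 2.3.3 and numpy 2.4.6, and the code was checked on simulated data. All 35 members are named. Coordinates in every list are given for the 6 with the highest mean percentile among those with an end peak in all lists, for those with an end peak in some lists and, within the span, for those with none. Promoters are printed for up to 6 members with a peak and the hexamer at a start and for 2 without a peak. The members, the classes and the gene lists were chosen with earlier results of these data known, and the split of the start windows, the width limits and the alternatives for that split were chosen after seeing the data. As alternatives, peaks with −log10 q under 5 were dropped (the stricter list), and the others were equal-length lists, windows of 500 bp and 2 kb, summits, larger overlaps, protein-coding members only, the start end only and leaving out each library.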

Additional observations from a re-analysis of the deposited data

How the results depend on the processing

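Of 86 alternative values of 12 results, 76 moved by less than the spread between lists or by less than 1.5 times. The EXT mean less the RC number of members with an end peak was 1.5 and became -0.5 with the stricter list. The paternal less the maternal share with an end peak, 3.03 percentage points on average over the lists, became -15.15 with 500 bp windows, -15.15 with 2 kb windows and -2.116 among protein-coding members, and 18.52 at the start end only. The median percentile of the members' best end peaks, 76.28 on average, became 69.96 with the stricter list, 69.9 with equal-length lists, 81.21 with 2 kb windows and 71.79 at the start end only. The germline methylated class exceeded the other members at their starts by 41.67 points, which became 30.56 among protein-coding members and lay between 32.64 and 44.44 under the alternatives of window, threshold, overlap and single starts, all chosen after seeing the data. Fewer members enter the comparisons of protein-coding genes and of start ends; for the other changes the cause was not tested. Leaving out each library in turn gave 22 to 24 members with an end peak in all remaining lists, an EXT less RC count of 0 to 3, a paternal less maternal difference of 0 to 9.091 points, a median percentile of 75.28 to 78.26 and a class difference of 37.5 to 46.88 points. No paired analysis was possible because the lists used, RC replicate 3 and EXT replicates 1 and 2, share no replicate number. A missing peak means that none passed the authors' cutoff at this depth, and both parental copies of a locus are read as one.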

Other observations

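Some narrow sites inside imprinted genes recurred with the same bounds in every list. Airn had chr17:12816276-12816435, with folds of 11.3, 13.03 and 9.24, in the order RC replicate 3, EXT replicate 1, EXT replicate 2. Plagl1 had chr10:13108253-13108412, 17.6 kb from its lower end, at 11.8, 13.5 and 7.11. Rasgrf1 had chr9:89989711-89989871 at 13.5, 13.9 and 6.70, and Trappc9 had chr15:72930478-72930641 at 12.8, 8.68 and 8.22. Of the 11 regions of identical bounds inside the members, 9 had their lowest fold in EXT replicate 2, the exceptions being those of Ndn and Meg3. Of 18 regions at least 400 bp wide in each list, 12 had their highest fold in EXT replicate 2 and 3 their lowest. Over the genome the shares were 76.9% lowest for 5502 regions of identical bounds, and 90.2% highest and 4.2% lowest for 9185 regions of at least 400 bp. These counts were made after the pattern was seen in the members, they rest on 1 library, and no cause was tested.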
